A study of Hydra vulgaris with 113 samples.

Results

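Among the open chromatin regions of regenerating Hydra vulgaris, 474 of 115968 ATAC-seq peaks lost accessibility by 3 h after amputation in head and in foot regenerates alike and stood at a similar level in both at 12 h. They are called early-closed peaks here, and they were chosen by the values of the untreated libraries at 0, 3 and 12 h. A peak had to reach a mean of 1.5 CPM (counts scaled to a library total of 1000000 in peaks) at 0 h on both sides. Its log2(mean CPM + 0.5) had to be at least 1 lower at 3 h than at 0 h on both sides, and at 12 h head and foot had to differ by less than 0.5 on that scale. All 474 peaks passed the low-count filter of the tests, which left 108934 peaks. The closing by 3 h, the level at 0 h and the likeness of the sides at 12 h are therefore given as a description with no test, while the 8 h libraries and all iCRT14 libraries took no part in the choice.

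Polyps of strain 105 were cut across the midpoint of the oral-aboral axis. Below the cut the tissue rebuilds a head, above it a foot. Tips of mid-body column tissue at the cut end were collected at 0, 3, 8 or 12 h. Polyps were untreated, or held in 5 µM iCRT14, added 2 h ahead of the cut and left on to the end, so that tips labelled 0 h in iCRT14 had already spent those 2 h in the inhibitor. Each library came from 15 pooled tips, and a group held 3 to 5 libraries that the design text calls biological replicates, 36 untreated and 35 in iCRT14.

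ATAC-seq inserts sequencing adapters into DNA that is not wrapped in nucleosomes or otherwise shielded, so that reads pile up over promoters, enhancers and other regions where proteins reach the DNA. In Hydra, a cut sets off a wound response on both faces of the wound before the pieces rebuild a head organizer or a foot. Canonical Wnt signalling, in which β-catenin joins TCF factors on DNA, marks the head organizer, and iCRT14 is a small molecule that interferes with the contact of β-catenin and TCF. In tips of mixed tissue, fewer cells of a type that holds a region open and less access to the region in each nucleus cannot be told apart.

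Libraries held 4.73 to 42.3 M counts, with a median of 13.6 M. Untreated 3 h libraries were the deepest, with group medians of 37.6 M for head and 36.4 M for foot, and iCRT14 8 h libraries the shallowest, with 7.82 and 8.55 M. Untreated 0 h groups had medians of 26.4 and 25.5 M, and untreated 12 h groups 8.62 and 9.53 M. Depth therefore changed together with time and treatment, and its part in the results below was not tested. The smallest deposited count was 1, and 0.597% of the values of the early-closed peaks stood at it, against 3.94% of all values.

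The early-closed peaks were somewhat narrower than other regions open at 0 h. Their median width was 508 bp (range 147 to 2779 bp), against 719 bp over the 78922 peaks that met the 0 h level on both sides. In all, 71 of them (15.0%) were under 250 bp wide, against 5.18% of the peaks that met the 0 h level, and 29 (6.12%) were at least 1500 bp wide, against 10.7%. Their mean level over the 0 h libraries ran from 1.60 to 98.4 CPM with a median of 8.88 CPM, against a median of 6.16 CPM for the peaks that met the 0 h level. They lay on 321 scaffolds, and 59 of them (12.4%) had another early-closed peak within 20 kb, while 2.93% of the other peaks at the 0 h level had one. A peak that opened by the same fold on both sides by 3 h, of which there were 1031, lay within 20 kb of 14 early-closed peaks (2.95%) and of 4.55% of the peaks at the 0 h level. Peaks are named by their number in the deposited table, and positions are as deposited, on scaffolds of a build not given in the sources used here. They could not be tied to genes, so no gene is named.

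The closing itself was of moderate size in most peaks. The 474 peaks together took 5831 to 6828 CPM in the 5 untreated head libraries at 0 h (median 6076 CPM) and 2116, 2444 and 2969 CPM in the 3 libraries at 3 h. In foot libraries the sum was 5957 to 6454 CPM at 0 h (median 6275 CPM) and 2189, 2273 and 2443 CPM at 3 h. Group means at 3 h were 40.5% of the 0 h mean in head and 36.9% in foot regenerates. The median change on the log2(mean CPM + 0.5) scale was -1.20 in head and -1.32 in foot, and 13 peaks in head and 28 in foot fell by 2 or more.

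**Figure D1:**
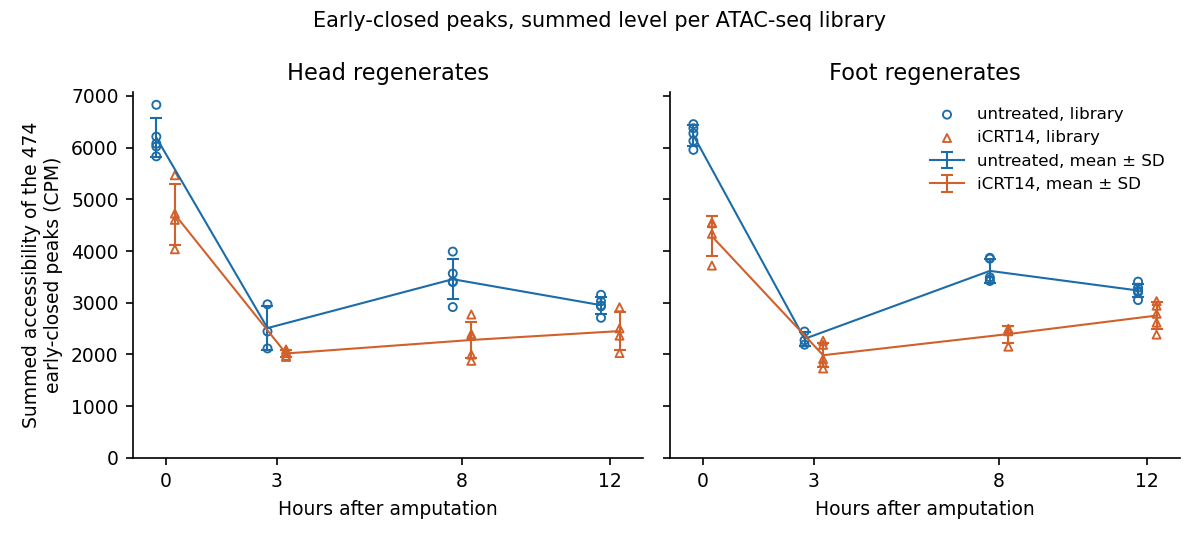
Summed level of the 474 early-closed peaks in each ATAC-seq library (CPM, symbols) against hours after amputation, with the mean and SD of each group, untreated in blue and iCRT14 in orange. All groups after 0 h lie below the 0 h libraries of their treatment, untreated sums rise from 3 h to 8 h, and iCRT14 sums at 8 h (medians 2359 CPM in head and 2465 CPM in foot) lie below untreated ones (3406 and 3492 CPM). The iCRT14 sums are lower at 0 h as well (medians 4664 CPM in head and 4435 CPM in foot, against 6076 and 6275 CPM).

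The peak with the highest level at 0 h was peak 104482 (Sc4wPfr_804:955385-956464). In head libraries it stood at 79.9, 104, 107, 98.4 and 112 CPM at 0 h and at 35.9, 43.4 and 36.9 CPM at 3 h. In foot libraries it stood at 76.2, 99.8, 108, 97.1 and 102 CPM at 0 h and at 29.6, 31.9 and 35.0 CPM at 3 h. Every 3 h library was thus well below every 0 h library on both sides. By 8 h the head libraries were back at 104, 74.96, 94.3, 88.5 and 135 CPM, while the foot libraries had reached 59.0, 76.5, 57.8, 70.02 and 63.4 CPM.

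The next highest were peaks 79575 (Sc4wPfr_50:827328-829832), 75916 (Sc4wPfr_475.1:856382-857562) and 80047 (Sc4wPfr_502:1482814-1484508). Peak 79575 went from 88.7 ± 7.13 CPM (SD, n = 5) to 39.4 ± 2.74 CPM (SD, n = 3) in head libraries. Peak 75916 went from 82.7 ± 5.40 CPM (SD, n = 5) to 40.6 ± 4.08 CPM (SD, n = 3) in foot libraries. Only 10 of the 474 peaks stood above 50 CPM on both sides at 0 h, whereas 104 stood below 5 CPM on both.

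The steepest closing was found at peak 57360 (Sc4wPfr_338.1:666718-666865), a narrow peak of 147 bp. Its head libraries stood at 6.64, 12.1, 8.67, 12.4 and 16.3 CPM at 0 h and at 0.856, 0.606 and 0.346 CPM at 3 h. Peak 74151 (Sc4wPfr_457:123897-124574) went from 23.9, 24.9, 20.4, 15.8 and 22.9 CPM in head libraries to 2.46, 2.69 and 2.00 CPM. It is wider than the narrow peaks at 677 bp and remained low, at a mean of 2.79 ± 1.39 CPM (SD, n = 5) at 12 h. Peaks 89709 (Sc4wPfr_6.1:1152714-1152875) and 76931 (Sc4wPfr_483:593301-593448), both narrow, completed the 4 steepest. At the limit of the fold, peaks 19600 and 84300 were just inside, with head changes of -1.0005 each. Peaks 105030 and 93796 were just outside, with foot changes of -0.9997 and -0.9992.

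Reopening was partial, and more of it was seen at 8 h than at 12 h. A peak was counted as recovered at a time if its level on both sides was within 0.5 of that at 0 h or above it on the log2 scale, as still closed if it was at least 1 below on both sides, and otherwise as mixed or partial. In untreated tips 51 of 474 peaks were recovered at 8 h, 342 were mixed or partial and 81 were still closed. At 12 h the counts were 39 recovered, 230 mixed or partial and 205 still closed. Of the 51 peaks recovered at 8 h, 19 were so at 12 h as well and 32 had become mixed or partial. The other 20 peaks recovered at 12 h had been mixed or partial at 8 h. In all, 132 peaks went from mixed or partial at 8 h to still closed at 12 h, and 73 were still closed at both times. No peak went from recovered to still closed or the reverse. With the peaks chosen again without the libraries numbered 2, 78 of 703 were recovered at 12 h, and without those numbered 3, 74 of 515.

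**Figure D2:**
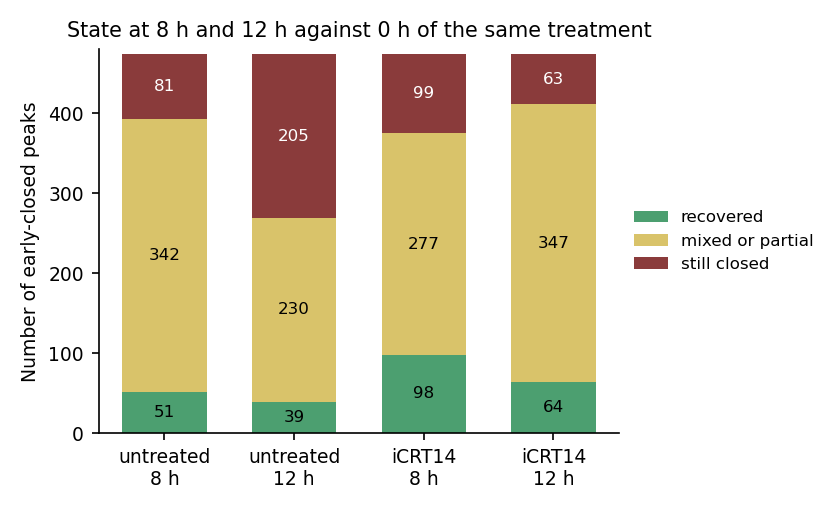
Number of early-closed peaks (of 474) that were recovered, mixed or partial, or still closed on both sides at 8 h and 12 h, against the 0 h libraries of the same treatment. Still closed peaks rise from 81 at 8 h to 205 at 12 h in untreated tips and fall from 99 to 63 in iCRT14, where the 0 h level was itself lower.

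By side, the level was above that at 3 h in 413 peaks in head and 450 in foot regenerates at 8 h, and it was lower at 12 h than at 8 h in 356 and 362. The 3 h level was chosen to be low, so a later level above it is a description with no test. These counts were not made for other peaks. The medians of the change from 0 h were -0.85 in head and -0.79 in foot at 8 h, and -1.10 and -1.0025 at 12 h. Over the peaks that met the 0 h level these medians lay between -0.01 and 0.05. The summed level was 55.8% of that at 0 h in head and 58.0% in foot at 8 h, and 47.7% and 51.9% at 12 h.

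**Figure D3:**
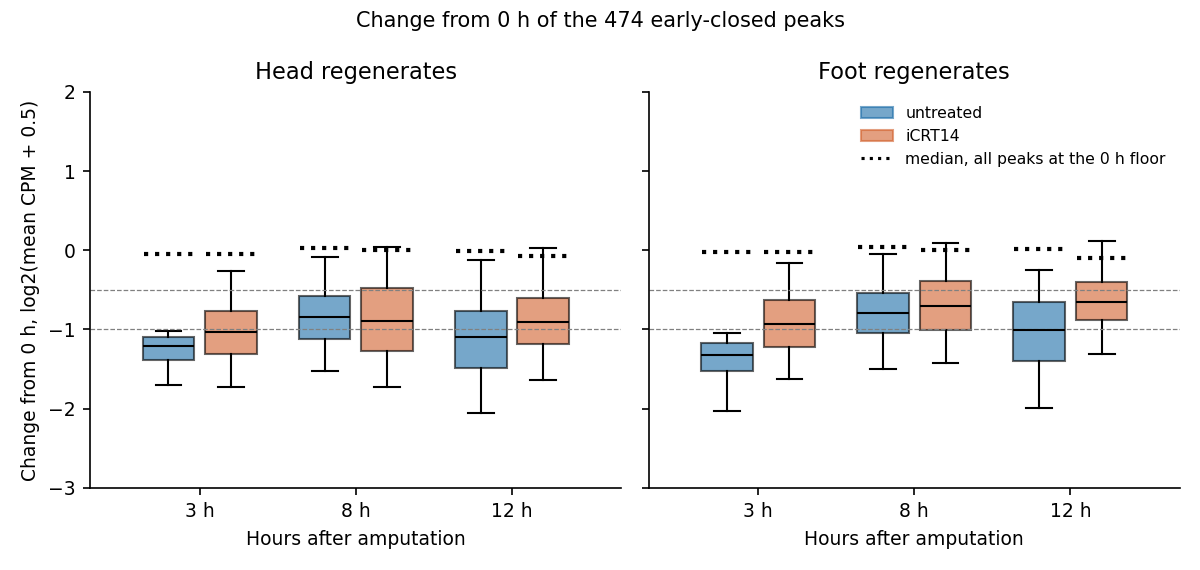
Change from 0 h of the 474 early-closed peaks on the log2(mean CPM + 0.5) scale, by side, time and treatment (box, quartiles with the median; whiskers, percentiles 5 and 95). Dotted lines give the median over all 78922 peaks at the 0 h level and dashed lines the limits for recovered (-0.5) and still closed (-1). Untreated medians rise from -1.20 and -1.32 at 3 h to -0.85 and -0.79 at 8 h and return to -1.10 and -1.0025 at 12 h.

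The second decline was tested, since the 8 h libraries took no part in the choice and the 12 h libraries entered it only through the likeness of the sides. Of 651 peaks that met the 0 h level and the fold, that limit left out 153 higher in foot and 24 higher in head at 12 h. Its part in the counts of falls and rises was not tested. From 8 h to 12 h in untreated tips, 81 of 474 peaks fell and 14 rose in head regenerates by edgeR's quasi-likelihood test with Benjamini-Hochberg adjusted p below 0.05, against 2.25% and 3.33% of all 108934 peaks. In foot regenerates 52 fell and 13 rose, against 1.5% and 2.00% of all peaks. Among peaks at the 0 h level the shares that fell were 2.92% in head and 1.89% in foot. On both sides at once 26 early-closed peaks fell, against 0.588% of all peaks. The median log2 fold change was -0.26 in head and -0.22 in foot, and -0.01 and -0.00 over all peaks. Without the libraries numbered 3 the falls were 46 in head and 30 in foot, against 1363 and 945 of all 108934 peaks. Without those numbered 4 they were 57 and 24, against 1556 and 693. Without those numbered 5 the head falls numbered 50, against 1603. The rises numbered 6 in head and 8 in foot without the libraries numbered 2, against 2242 and 1272 of all peaks. They numbered 4 and 5 without those numbered 3, against 1445 and 774. Without those numbered 4 they were 7 and 5, against 2003 and 739.

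The peaks that reopened most by 12 h were 114494 (Sc4wPfr_958:217438-218347), 87013 (Sc4wPfr_582:1481798-1483233), 45693 (Sc4wPfr_268:641137-641919) and 21277 (Sc4wPfr_1556:638596-638931). Peak 45693 stood at 5.67, 4.35 and 4.82 CPM in head libraries at 3 h, at 7.24 to 11.7 CPM at 8 h (median 9.23 CPM) and at 10.1, 12.4, 17.6, 13.5 and 14.5 CPM at 12 h. These 12 h libraries lay in or above the 0 h range of 9.03 to 13.7 CPM. Peak 21277 went in foot libraries from 0.884, 1.13 and 1.75 CPM at 3 h to 4.63, 5.62, 5.58, 6.35 and 4.45 CPM at 8 h and 3.87 to 5.67 CPM at 12 h (median 4.59 CPM). At 0 h it had 4.31 to 4.97 CPM there, so that reopening was complete by 8 h.

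For the other 2 of these peaks the libraries of a group disagreed. Peak 87013 had 6.07 and 6.58 CPM in the untreated head libraries 1 and 2 at 12 h and 21.7, 17.3 and 17.6 CPM in libraries 3, 4 and 5. In foot libraries it had 8.28 and 7.07 CPM in libraries 1 and 2 and 31.2, 29.2 and 20.7 CPM in the other 3. The means of 13.9 and 19.3 CPM therefore fall between a low and a high set of libraries on both sides. Peak 114494 ranged from 1.78 to 10.2 CPM already among the head libraries at 0 h.

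The peaks that stood furthest below their 0 h level at 12 h, among those of at least 3 CPM at 0 h, were 57360, 62173 (Sc4wPfr_370:882436-883394), 64423 (Sc4wPfr_384:1464039-1464289) and 36431 (Sc4wPfr_224.1:375266-375567). Peak 62173 closed in steps. Its foot libraries stood at 16.1, 17.0, 15.98, 17.7 and 18.0 CPM at 0 h, at 5.31, 4.83 and 3.59 CPM at 3 h, at 4.08 to 7.83 CPM at 8 h (median 5.97 CPM) and at 0.696, 1.63, 2.58, 1.15 and 2.19 CPM at 12 h. The 12 h libraries lay below all those of the earlier times. These peaks were named for their level at 12 h, so their change from 8 h to 12 h is given with no test.

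Closing by 3 h was seen in iCRT14 libraries as well, which took no part in the choice. In head regenerates 388 of 474 peaks fell between 0 h and 3 h in iCRT14 and 1 rose (edgeR, adjusted p below 0.05), against 10.1% and 8.27% of all peaks. In foot regenerates 361 fell and 1 rose, against 10.5% and 5.15%. Among peaks that met the 0 h level, 13.4% fell in head and 14.0% in foot. On both sides 344 of the 474 fell, against 7.18% of all peaks, and 69 fell on neither. The median log2 fold change was -1.15 in head and -1.10 in foot, against 0.01 and -0.00 over all peaks, and 459 peaks had a negative fold change on both sides. Every 3 h library lay below every 0 h library in 373 peaks in head, 303 in foot and 279 on both sides. This held in 13.0%, 9.52% and 6.69% of all peaks.

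**Figure D4:**
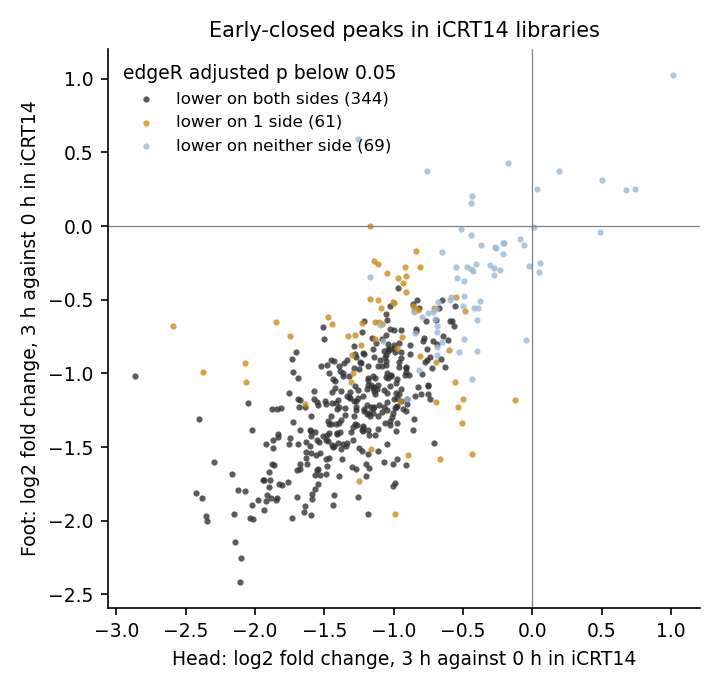
Log2 fold change from 0 h to 3 h in iCRT14 libraries of the 474 early-closed peaks, head regenerates on the horizontal and foot regenerates on the vertical axis. Black points mark the 344 peaks that fell on both sides, amber points those that fell on 1 side, and pale points the 69 that fell on neither.

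No early-closed peak changed differently in head and foot between 0 h and 3 h in iCRT14 by the test of that difference, against 0.000918% of all peaks (1 peak). At an unadjusted p below 0.05 by edgeR 8 early-closed peaks had the more positive change in head and 20 in foot. The share of all peaks at that p was not counted, so these counts are not read as a result. DESeq2 called 0 early-closed peaks after adjustment. With the change by 3 h averaged over head and foot, Spearman's rho between untreated and iCRT14 tips was 0.075 across the 474 peaks. This is a description, since the untreated change was limited by the choice of the peaks. The 118 peaks with the largest untreated falls had a median iCRT14 change of -1.01, and the 118 with the smallest had -0.93.

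The 4 peaks with the largest falls in iCRT14 were 46435 (Sc4wPfr_270.1:1145752-1145992), 36431, 4072 (Sc4wPfr_106:3599746-3599911) and 7091 (Sc4wPfr_1121:88582-89548). Peak 7091 stood at 36.4, 29.9, 17.8 and 24.8 CPM in iCRT14 head libraries at 0 h and at 4.70, 5.92, 5.93 and 3.92 CPM at 3 h. The groups were far apart, with a fall of 2.35 ± 0.21 (log2 fold change, SE; edgeR adjusted p = 1.12e-14). In iCRT14 foot libraries it fell from 18.6, 29.6, 19.8 and 27.2 CPM to 7.91, 6.28, 3.91, 5.41 and 7.39 CPM, by 1.97 ± 0.20 (edgeR adjusted p = 4.72e-13). Peak 46435, 240 bp wide, fell in foot by 2.42 ± 0.26 (edgeR adjusted p = 8.68e-12), from 5.37 to 8.35 CPM at 0 h to 0.509 to 2.05 CPM at 3 h.

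Some early-closed peaks were already low in iCRT14 at 0 h. The untreated 0 h level was chosen to be high, so this comparison has no test. On the log2(mean CPM + 0.5) scale the iCRT14 level at 0 h was below the untreated one in 405 peaks in head and 447 in foot, with median differences of -0.42 and -0.54. In 52 peaks (11.0%) it was at least 1 lower on both sides, against 0.227% of the peaks at the 0 h level. Of these 52 peaks, 23 fell in head and 21 in foot by 3 h in iCRT14, against 365 and 340 of the other 422. Of the 71 peaks under 250 bp, 46 (64.8%) fell in head and 40 (56.3%) in foot, against 342 (84.9%) and 321 (79.7%) of the 403 wider ones, and their level at 0 h was lower (median 3.78 CPM in head against 9.94 CPM). These counts and shares were not tested against each other.

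Peak 75916, one of the highest at 0 h, did not pass the test of a fall in iCRT14. In iCRT14 head libraries it stood at 54.0, 48.1, 40.3 and 48.8 CPM at 0 h and at 42.9, 46.3, 40.7 and 47.6 CPM at 3 h, so that the groups overlapped (log2 fold change -0.06 ± 0.12, SE; edgeR adjusted p = 0.807). In untreated head libraries it had 69.9, 83.7, 81.6, 68.2 and 79.7 CPM at 0 h. Peak 47492 (Sc4wPfr_275.3:902926-903177), named after its values were seen, was the 1 peak that rose by 3 h in iCRT14, and it did so on both sides. Its head libraries went from 1.52, 2.26, 1.98 and 2.30 CPM to 5.44, 4.26, 2.49 and 3.66 CPM, a rise of 1.01 ± 0.32 (log2 fold change, SE; edgeR adjusted p = 0.0183). In untreated head libraries it had 7.87 to 11.6 CPM at 0 h.

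Reopening in iCRT14 was called mainly between 3 h and 12 h, and the counts of the sides were not tested against each other. From 3 h to 8 h, 31 of 474 peaks rose and 16 fell in head, against 8.55% and 8.48% of all peaks, which is no larger a share than in the background. In foot 45 rose and 3 fell, against 5.94% and 5.41%. A fit of only the groups compared gave 13 rises and 3 falls in head, against 2999 and 4177 of all 108934 peaks. In foot it gave 25 rises and 1 fall, against 4473 and 4299. Without the libraries numbered 3 the rises numbered 19 in head and 23 in foot, against 4001 and 3544 of all peaks. Without those numbered 4 the head count was 12, against 4823. Without those numbered 2 the foot count was 17, against 3759, a share near that of all peaks. From 3 h to 12 h, 83 peaks rose in head and 7 fell, against 8.70% and 7.07% of all peaks. In foot 184 rose and 10 fell, against 14.1% and 8.94%. Among peaks at the 0 h level 11.2% rose in head and 18.6% in foot, and 68 of the 474 rose on both sides, against 5.92% of all peaks. Without the libraries numbered 1 the head count was 55 of 474, against 10730 of all 108934 peaks, a share only slightly above that of all peaks. Without those numbered 4 it was 44, against 4655 of all peaks. With all libraries 9478 of all peaks rose in head.

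Rises in iCRT14 were then counted by the state of the peaks in untreated tips. Of the 39 peaks recovered at 12 h without inhibitor, 22 rose in head and 29 in foot between 3 h and 12 h in iCRT14, with median log2 fold changes of 0.82 and 0.91. Of the 230 mixed or partial peaks 49 and 111 rose, with medians of 0.27 and 0.54. Of the 205 still closed peaks 12 and 44 rose, with medians of 0.03 and 0.13. Falls numbered 0 and 0, 2 and 2, and 5 and 8 in these 3 classes. Over all peaks 8.7% rose in head and 14.1% in foot, and 7.07% and 8.94% fell. Among peaks at the 0 h level 11.2% and 18.6% rose. The share of still closed peaks that rose was thus below both in head and somewhat above both in foot. The classes come from untreated libraries and the rises from iCRT14 libraries, and the classes were not tested against each other. Against the 0 h level in iCRT14, 15 of the 39 peaks were recovered in iCRT14 at 12 h, 22 were mixed or partial and 2 were still closed. Of the 205 peaks still closed in untreated tips, 21, 145 and 39 had these states. Their median level at 0 h was 7.88 CPM in untreated and 4.66 CPM in iCRT14 head libraries, so that the states in the 2 treatments are set against different levels.

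At 8 h the early-closed peaks were lower in iCRT14 than in untreated tips, in groups that both took no part in the choice. In head regenerates 237 of 474 were lower and 3 higher in iCRT14, against 8.56% and 8.67% of all peaks (edgeR, adjusted p below 0.05). In foot 243 were lower and 4 higher, against 9.67% and 8.40%. Among peaks at the 0 h level 11.5% were lower in head and 13.1% in foot. On both sides 184 were lower, against 4.94% of all peaks. The median log2 fold change was -0.64 in head and -0.63 in foot, against 0.03 and 0.04 over all peaks. The summed levels in head libraries were 1877 to 2772 CPM in iCRT14 and 2916 to 3989 CPM in untreated tips, and in foot libraries 2150 to 2496 CPM and 3420 to 3869 CPM, with no overlap on either side. The iCRT14 level was already lower at 0 h, by medians of -0.42 in head and -0.54 in foot on the log2(mean CPM + 0.5) scale. Against 0 h of the same treatment, the median change at 8 h was -0.80 untreated and -0.81 in iCRT14, averaged over head and foot. The test at 8 h does not separate the level at 0 h from the later change.

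At 12 h fewer peaks differed, though the change of the difference from 8 h to 12 h was not tested. The untreated 12 h libraries had entered the choice through the likeness of the sides. In head regenerates 54 peaks were lower and 6 higher in iCRT14, against 2.40% and 3.18% of all peaks, and in foot 59 were lower and 16 higher, against 2.06% and 2.22%. On both sides 24 were lower, against 0.423% of all peaks, and 5 were higher, against 1.08%. Median log2 fold changes were -0.23 in head and -0.20 in foot. Of the peaks lower at 12 h, 45 in head and 40 in foot had also been lower at 8 h. The share of all peaks that were lower at both times was not counted, so this overlap is a description. The head count of lower peaks was 19 without the libraries numbered 3 and 27 without those numbered 4, and the foot count was 39 without those numbered 3. Over all peaks the lower ones became fewer as well, from 2614 to 902 and 1218 in head and from 2241 to 1233 in foot.

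Peaks 91124 (Sc4wPfr_620.1:218442-218798) and 84113 (Sc4wPfr_548:1246644-1247135) were the furthest below untreated tips at 12 h in iCRT14. Peak 91124 stood at 5.49, 4.92, 5.10, 3.64 and 5.49 CPM in untreated head libraries at 12 h and at 1.85, 1.60, 2.16 and 1.82 CPM in iCRT14. The groups did not overlap, and the log2 fold change was -1.39 ± 0.26 (SE; edgeR adjusted p = 8.24e-05). In foot libraries it stood at 2.93 to 5.36 CPM (median 3.67 CPM) against 1.204 to 1.97 CPM (median 1.51 CPM), with a log2 fold change of -1.36 ± 0.25 (edgeR adjusted p = 9.46e-05). On the head side this peak closed to a like level at 3 h in both treatments, with means of 2.40 CPM in untreated and 2.08 CPM in iCRT14 libraries. Its foot libraries at 3 h stood at 1.99, 2.14 and 3.62 CPM untreated and at 0.646 to 2.74 CPM in iCRT14. At 12 h its untreated head libraries were near those at 0 h, which had 5.00 to 6.24 CPM. The untreated foot libraries had 4.82 to 7.62 CPM at 0 h.

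Peak 7091 was also lower in iCRT14 at 12 h on both sides. At 12 h peak 7091 stood at 22.5, 30.9, 27.6, 21.2 and 27.6 CPM in untreated and at 18.4, 12.6, 7.58 and 10.2 CPM in iCRT14 head libraries (log2 fold change -1.08 ± 0.19, SE; edgeR adjusted p = 2.95e-05). Its foot libraries stood at 19.97 to 28.4 CPM and 9.03 to 14.2 CPM (log2 fold change -0.92 ± 0.18, edgeR adjusted p = 0.000197). Peak 45693, named for its high untreated level at 12 h and so compared with no test, differed by -1.04 ± 0.19 in head and -0.64 ± 0.18 in foot (log2 fold change, SE). At 0 h it stood at 4.97 to 7.94 CPM in iCRT14 head libraries against 9.03 to 13.7 CPM in untreated ones.

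**Figure D5:**
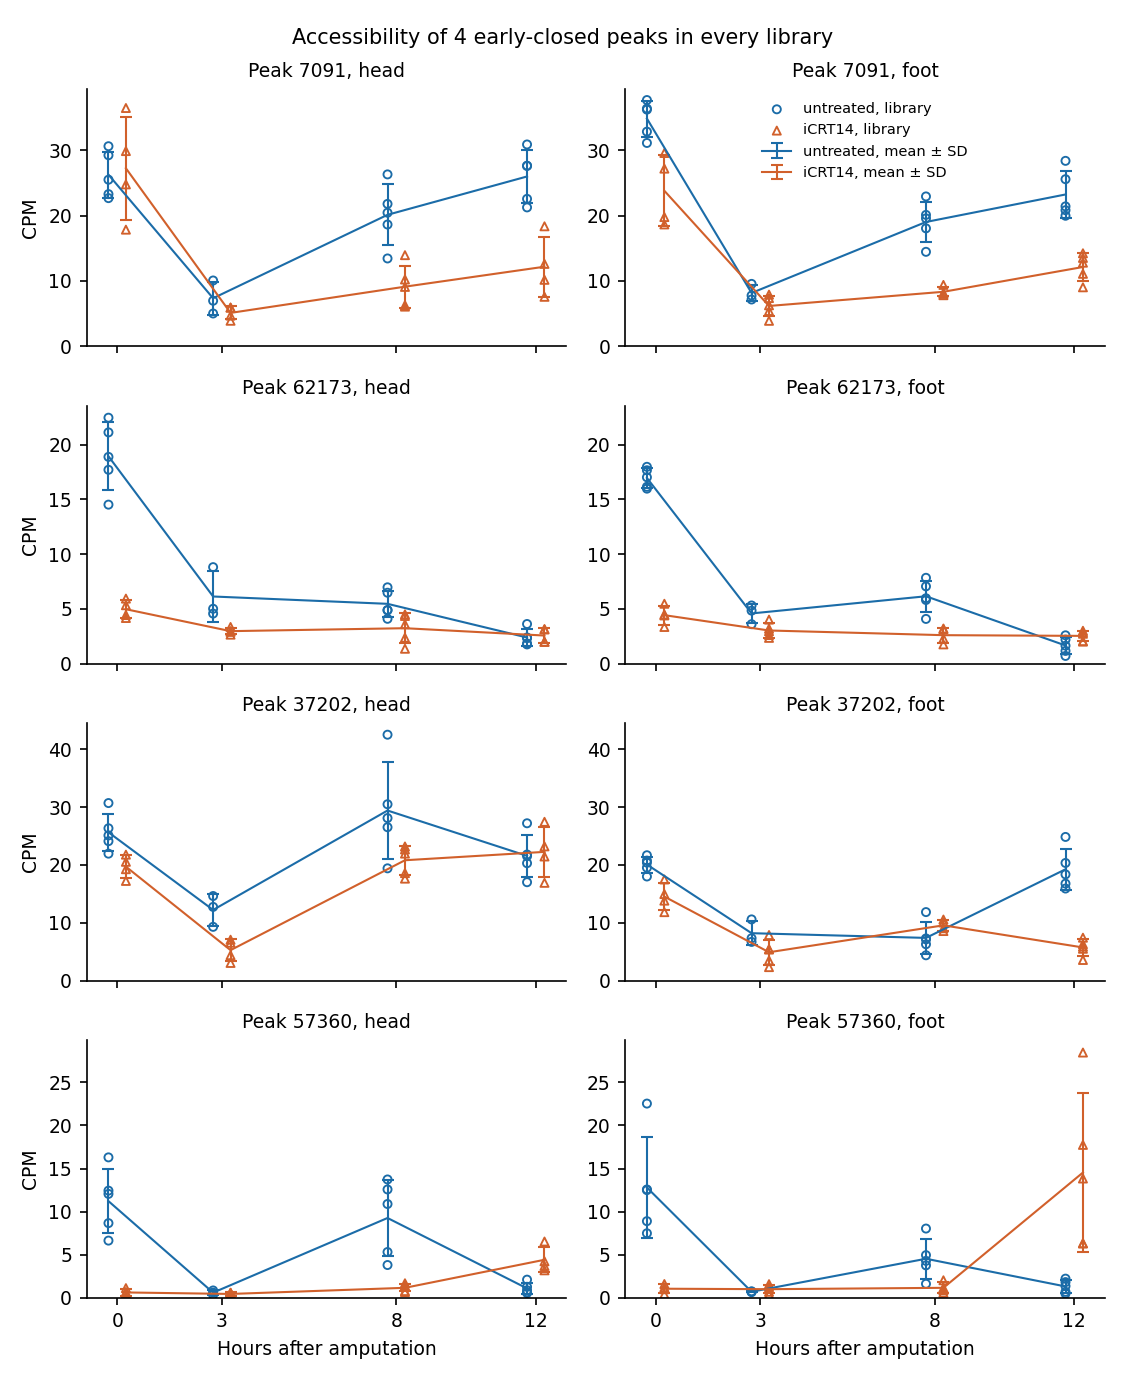
Accessibility (CPM) of peaks 7091, 62173, 37202 and 57360 in every library against hours after amputation, head regenerates on the left and foot regenerates on the right, with the mean and SD of each group. Peak 7091 reopens further untreated than in iCRT14, peak 62173 remains low, peak 37202 is lower in foot than in head at 8 h untreated and at 8 h and 12 h in iCRT14, and peak 57360 is high at 0 h and 8 h untreated and at 12 h in iCRT14.

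The 5 peaks higher in iCRT14 on both sides at 12 h were 57360, 76931, 46346 (Sc4wPfr_270.1:551627-551815), 89950 (Sc4wPfr_602:59258-59534) and 74346 (Sc4wPfr_458:364545-365084), of which all but the last are 276 bp wide or less. The last 3 were named after their values were seen. Peak 57360 stood in foot libraries at 0.487, 0.699, 2.23, 1.36 and 1.83 CPM untreated and at 6.32, 6.32, 13.8, 28.5 and 17.7 CPM in iCRT14 at 12 h. The groups did not overlap, with a log2 fold change of 3.58 ± 0.40 (SE), and in head libraries it was 2.15 ± 0.46. This peak was also named for its low untreated level at 12 h, so no p is given for it. In iCRT14 foot libraries it had been at 0.407 to 1.60 CPM at 0 h, 0.369 to 1.59 CPM at 3 h and 0.587 to 2.04 CPM at 8 h. It thus stayed low through 8 h in the inhibitor and was high at 12 h.

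Peaks 76931, 46346 and 89950 went up and down in the same libraries. In iCRT14 foot libraries 1 to 5 at 12 h, peak 76931 stood at 0.890, 0.956, 3.21, 4.30 and 2.00 CPM. Peak 46346 stood there at 4.09, 2.65, 8.83, 16.3 and 11.8 CPM, and peak 89950 at 4.27, 4.41, 8.43, 15.4 and 11.1 CPM. Libraries 3 to 5 were higher than libraries 1 and 2 in all 3 peaks, as they were for peak 57360. In untreated head libraries at 8 h, peak 57360 stood at 12.6, 13.7 and 10.9 CPM in libraries 1 to 3 and at 3.81 and 5.32 CPM in libraries 4 and 5. Peak 76931 stood at 2.64, 2.95 and 2.50 CPM in libraries 1 to 3 and at 0.497 and 0.647 CPM in libraries 4 and 5. Peak 89709, which is 161 bp wide, had 5.85, 6.06 and 5.27 CPM and 0.911 and 1.94 CPM in the same libraries. The spread between libraries of 1 group was thus large in these peaks and fell in the same places. Peak 76931 was listed at a count of 1, the smallest value, in several untreated 3 h and iCRT14 0 h libraries.

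Head and foot regenerates were also compared at 8 h, a time that took no part in the choice. In untreated tips 17 of 474 were higher in head and 20 higher in foot (edgeR, adjusted p below 0.05), against 2.38% and 0.940% of all peaks. In iCRT14 at 12 h 13 were higher in head and 35 higher in foot, against 3.06% and 1.59%. Both balances between the sides changed when the libraries numbered 2, 3 or 4 were left out. At 8 h untreated, 13 were higher in head and 4 in foot without the libraries numbered 2, 14 and 9 without those numbered 3, and 18 and 6 without those numbered 4. At 12 h in iCRT14 these counts were 11 and 12, 11 and 10, and 10 and 8 without the same libraries. Over all peaks those higher in foot became fewer as well, from 1024 to 502, 523 and 599 at 8 h untreated. At 12 h in iCRT14 they went from 1737 to 564, 546 and 475. In all, 15 peaks were called in both comparisons, which is 40.5% of the first list and 31.3% of the second. Of these, 13 had the same direction, 8 higher in head and 5 higher in foot, against 1.83% of all peaks.

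The largest head excess was at peaks 110819 (Sc4wPfr_9:262305-262682) and 37202 (Sc4wPfr_226.1:1374973-1375404). Peak 37202 stood at 28.1, 19.4, 30.5, 26.5 and 42.5 CPM in head and at 4.39, 6.30, 7.13, 7.30 and 11.9 CPM in foot libraries at 8 h untreated. The sides did not overlap, with a log2 fold change of 1.98 ± 0.19 (SE; edgeR adjusted p = 2.92e-13). At 12 h untreated the foot libraries had risen to 15.9, 16.8, 24.8, 20.4 and 18.4 CPM, close to the head libraries at 17.0 to 27.2 CPM, as the choice of the peaks required.

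In iCRT14 the head libraries of peak 37202 were above the foot libraries at 8 h and at 12 h. At 8 h they stood at 18.6, 23.2, 17.6, 22.0 and 22.7 CPM in head and at 9.06, 10.6, 10.1 and 8.58 CPM in foot, a difference that was not tested. At 12 h head libraries stood at 23.2, 16.9, 21.5 and 27.5 CPM and foot libraries at 6.32, 5.88, 5.52, 3.58 and 7.43 CPM, with a log2 fold change of 1.97 ± 0.21 (edgeR adjusted p = 3.16e-11). Peak 110819 had log2 fold changes of 2.15 ± 0.29 at 8 h untreated and 2.27 ± 0.38 at 12 h in iCRT14 (edgeR adjusted p = 5.7e-08 and 9.19e-06). Peak 75916 was also low on the foot side in both groups. Its foot libraries stood at 22.7, 27.3, 28.1, 27.5 and 25.5 CPM at 8 h untreated and at 21.8, 18.9, 27.0, 22.7 and 25.3 CPM at 12 h in iCRT14. At 12 h untreated they stood at 36.4 to 38.4 CPM and at 8 h in iCRT14 at 35.4 to 46.3 CPM, so that the low level came at different times in the 2 treatments. The head excess was called in both groups (edgeR adjusted p = 1.65e-11 and 4.63e-09).

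The largest foot excess at 8 h was at peaks 85353 (Sc4wPfr_561.1:134962-135492) and 68231 (Sc4wPfr_4098:4894-5682). Peak 85353 stood at 9.16, 9.70, 10.3, 11.9 and 7.16 CPM in foot and at 4.34, 3.99, 4.87, 4.01 and 5.73 CPM in head libraries. The sides did not overlap (log2 fold change -1.05 ± 0.21, SE; edgeR adjusted p = 0.000433). Its 0 h level in foot was 5.04 to 6.98 CPM, so that the peak rose above its 0 h level on that side and came down to 2.31 to 5.05 CPM at 12 h. Peak 68231 had a log2 fold change of -1.01 ± 0.27 at 8 h (edgeR adjusted p = 0.0119), and in iCRT14 at 12 h neither peak was called (edgeR adjusted p = 0.655 and 0.491).

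Neighbouring early-closed peaks were mostly in pairs. Chained at gaps of at most 20 kb there were 28 stretches of 2 peaks and 1 stretch of 3, made of peaks 104834 (Sc4wPfr_811:853574-854120), 104839 (Sc4wPfr_811:869033-869576) and 104842 (Sc4wPfr_811:874419-874865). All 3 fell by 3 h in iCRT14 on both sides. Their log2 fold changes in foot were -1.98 ± 0.18 for peak 104834, -1.49 ± 0.21 for peak 104839 and -1.24 ± 0.18 for peak 104842 (edgeR adjusted p = 7.41e-15, 3.85e-08 and 1.01e-07). Their later values in untreated tips are given side by side, and the peaks were not tested against each other. Peak 104834 rose in head from 8 h to 12 h by 0.57 ± 0.16 (edgeR adjusted p = 0.0181), from 7.75 to 11.1 CPM to 12.5 to 15.9 CPM. Peaks 104839 and 104842 had changes of -0.03 ± 0.20 and -0.30 ± 0.17 there (edgeR adjusted p = 0.959 and 0.388). From 3 h to 12 h in iCRT14 foot regenerates all 3 rose, by 1.64 ± 0.18, 1.19 ± 0.21 and 0.57 ± 0.18 (edgeR adjusted p = 5.26e-12, 4.62e-06 and 0.0168). On the head side peak 104842 was lower in every iCRT14 library at 12 h (3.51 to 3.97 CPM) than at 3 h (4.17 to 5.45 CPM). Peak 104834 went there from 4.21 to 6.39 CPM at 3 h to 5.54 to 10.5 CPM. Peak 104839 went from 2.10 to 4.59 CPM to 3.70 to 6.22 CPM.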

How the data were processed

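ATAC-seq counts from 71 libraries in 16 groups of side, time and treatment were used. Whole-number counts per consensus peak were taken as the authors deposited them, and the submitters' processing notes name Trimmomatic 0.36, Bowtie2 2.2.6, Picard 2.17.8, SAMtools 1.2, deepTools 3.3.1 and DiffBind. The genome build and any filter are not given in the sources used here. The smallest count is 1 in the deposited table, and whether 1 was added is not stated, so levels near 1 count are uncertain. Positions are printed as deposited, from 0 or from 1 not stated.

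The peaks and the rules for naming them were chosen with earlier results of these data known. Levels are plain CPM, and changes from 0 h are differences of log2(mean CPM + 0.5) between group means. Tests were edgeR 4.0.16 quasi-likelihood tests (R 4.3.3) on the deposited counts of all libraries, with filterByExpr, TMM scaling and 1 mean per group. They are two-sided, and p-values were Benjamini-Hochberg adjusted over the 108934 peaks of each comparison, with calls below 0.05. Standard errors were derived from the fold change and the test statistic. The fit was tested on simulated data.

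Named peaks are the 4 highest at 0 h, the 4 with the largest falls, the 4 most and the 4 least reopened at 12 h, and the 4 with the largest falls in iCRT14. The 2 most above and the 2 most below untreated tips in iCRT14 at 12 h, the 2 with the largest excess on each side at 8 h untreated, the 2 on each side of the fold limit and the longest stretch complete the rule. Peaks said to be named after their values were seen lie outside it. Replicate correlations of log2 CPM within groups ran from 0.897 to 0.988, and no pair of 126 was a repeated deposit by a chi-square of counts (smallest value per degree of freedom 1.94). A second deposited table of 106568 peaks in the untreated libraries was used to choose peaks again, and 472 of the 474 overlapped one of its peaks. RNA-seq libraries and motif scores were not used here.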

Additional observations from a re-analysis of the deposited data

Results flagged for a closer look

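Single libraries stood apart from their group in 20 of 504 groups of 4 or 5 libraries looked at, over the named peaks and the summed level. Chance alone flags about 1 in 20 groups. The summed level of the early-closed peaks was 2150 CPM in 1 iCRT14 foot library at 8 h, against a group median of 2465 CPM. The other cases are single peaks.

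In iCRT14 head libraries at 12 h, peak 80047 had 21.6 CPM in 1 library (group median 13.5 CPM), peak 114494 had 8.02 CPM in 1 library (3.86 CPM) and peak 110819 had 3.23 CPM in 1 library (1.80 CPM). In iCRT14 head libraries at 8 h, peak 84113 had 2.93 CPM in 1 library (0.422 CPM) and peak 104842 had 1.22 CPM in 1 library (4.65 CPM). In iCRT14 head libraries at 3 h, peak 21277 had 2.98 CPM in 1 library (1.36 CPM). In iCRT14 foot libraries, peak 21277 had 6.07 CPM at 0 h (4.34 CPM), peak 75916 had 46.3 CPM at 8 h (36.7 CPM), peak 46346 had 1.60 CPM at 8 h (0.483 CPM) and peak 4072 had 0.555 CPM at 12 h (0.179 CPM).

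In untreated foot libraries at 0 h, peak 76931 had 5.39 CPM (group median 2.04 CPM), peak 45693 had 9.77 CPM (13.3 CPM), peak 64423 had 21.2 CPM (19.0 CPM) and peak 19600 had 21.3 CPM (24.4 CPM). At 8 h in the same tips, peak 87013 had 13.7 CPM (7.78 CPM) and peak 104834 had 10.5 CPM (14.0 CPM). At 12 h untreated, peak 89709 had 1.16 CPM in 1 head library (0.281 CPM) and 1.58 CPM in 1 foot library (0.233 CPM), and peak 76931 had 0.464 CPM in 1 head library (0.141 CPM).

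Of 210 comparisons of the sides over the named peaks, peak 75916 moved in opposite directions in head and foot regenerates in 2, with every library of a side on the same side of the other group. The difference itself was not tested. From 8 h to 12 h untreated the head libraries went down, to a mean of 39.7 CPM, and the foot libraries went up. At 12 h the head libraries were higher in iCRT14, at a mean of 44.1 CPM, and the foot libraries were lower.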

How the results depend on the processing

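Most recomputed counts that changed by more than 1.5 times did so when the libraries of 1 replicate number were left out. The other such changes came with the fold limit, the recovery limit and fits of only the groups compared. A fold limit of 1.5 on the log2 scale left 63 peaks in place of 474, while TMM-scaled CPM gave 444 (427 shared), a pseudocount of 1 gave 354 (334 shared), 3 CPM at 0 h gave 421, and the table of untreated libraries gave 489. The 39 peaks recovered at 12 h became 17 with a limit of -0.25 and 93 with -0.75. Fits of only the groups compared gave 13 rises from 3 h to 8 h in iCRT14 in head and 25 in foot. With the replicate number as a block in such fits, 50 peaks rose from 3 h to 12 h in iCRT14 head regenerates, 75 differed between the sides at 8 h untreated (32 higher in head, 43 in foot) and 74 at 12 h in iCRT14 (14 and 60). The cause was not tested, and the numbers are not taken to pair the libraries: no comparison had a correlation of deviations above 0.1 in every same-numbered pair. In the edgeR fit, library size alone moved the median of all peaks by -0.09 to 0.09 and relative log expression (RLE) size factors by -0.03 to 0.04.

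Leaving out the libraries of 1 replicate number at a time, with the peaks chosen again where the count is of the choice itself, gave 385 to 703 peaks, of which 35 to 78 were recovered at 12 h. Falls by 3 h in iCRT14 numbered 347 to 392 in head and 308 to 372 in foot. Rises from 3 h to 8 h in iCRT14 numbered 12 to 34 and 17 to 65, and rises from 3 h to 12 h 44 to 94 and 145 to 187. Rises from 8 h to 12 h untreated numbered 4 to 17 and 5 to 13, and falls 46 to 73 and 24 to 52. Peaks lower in iCRT14 numbered 173 to 228 and 189 to 230 at 8 h, and 19 to 71 and 39 to 51 at 12 h. Differences between the sides numbered 17 to 37 at 8 h untreated, 18 to 56 at 12 h in iCRT14, and 0 for the change by 3 h in iCRT14. In all, 200 recomputed values remained within 1.5 times the reported count and 31 did not. From 8 h to 12 h untreated this tally scored the rises and not the falls, and between treatments it scored only the lower peaks. An alternative with only the 403 peaks of at least 250 bp, chosen after seeing the data, was tallied, and its scored counts remained within 1.5 times. It left the higher peaks in iCRT14 at 12 h, which were not scored, at 3 in head and 9 in foot, from 6 and 16.

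Depth limits the shallow groups: 1 count is worth more CPM in iCRT14 8 h and untreated 12 h libraries than in untreated 3 h libraries, so that low levels there are coarse.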
